A study of Mus musculus with 6 samples.

Results

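Smad3 binding sites in mouse embryonic stem cells were divided by whether Tgif1 was bound at the same place. The Smad3 peak list held 1226 peaks, of which 1199 lay on chromosomes 1 to 19 and were used, out of 70533 peaks in the 5 lists of the study. A Smad3 peak counted as shared when a Tgif1 peak overlapped it by at least 1 bp. This gave 823 Smad3 peaks with Tgif1 and 376 without. All libraries came from J1 embryonic stem cells containing BirA, a bacterial biotin ligase, kept in serum with leukemia inhibitory factor. The labels give no treatment or mutation that separates the libraries. Chromatin was cross-linked with formaldehyde and sequenced after immunoprecipitation (ChIP-seq). Antibodies served for Tgif1, Smad3 and Hdac1, and streptavidin beads, which hold biotin-tagged protein, for Tgif2 and Nanog. Each factor had 1 library and 1 list, so no value has a replicate check and no difference between the sides was tested over replicates. The mock precipitation was not analysed here, so these values stand without a measured background.

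Smad3 is the receptor-activated carrier of Activin, Nodal and TGF-beta signals. After phosphorylation it joins Smad4, enters the nucleus and binds DNA weakly by itself, so that its sites in a given cell type largely follow the factors already resident there. In embryonic stem cells Nanog, a homeodomain protein of the pluripotency network, is one such factor. Tgif1 is a homeodomain repressor that can bind DNA directly or through Smad proteins and recruits histone deacetylases, among them Hdac1. Tgif2 is its close paralog.

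Tags are the sequenced fragments that the authors' peak caller counted in a peak, and were used to order peaks within 1 list. Smad3 peaks were split by tags into 5 groups of 240, 240, 240, 240 and 239 peaks, called quintiles, from the lowest to the highest. Their limits were 11 to 17, 17 to 23, 23 to 31, 31 to 45 and 45 to 1141 tags, with equal tag numbers ordered by fold enrichment. Intervals of shares are 95% Wilson intervals and intervals of differences of shares are 95% Newcombe intervals. For a mean difference over quintiles the limits of the quintiles were combined. Intervals of medians come from order statistics, the values at set ranks, and those of differences of medians combine the limits of both medians. All these intervals cover counting error over peaks only, and peaks of 1 library are not replicates. No genes are named for regions, and coordinates are in the mm9 build as deposited.

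Tgif1 was present at most Smad3 peaks, and more often at peaks with more Smad3 tags. Of the 1199 Smad3 peaks, 68.6% overlapped Tgif1 (interval 66.0 to 71.2). Set against the other lists, Tgif1 overlapped 36.5% of Nanog peaks, 64.8% of Hdac1 peaks and 68.1% of Tgif2 peaks on the same chromosomes. The share at Smad3 peaks was well above that of the whole Nanog list and close to that of the Hdac1 and Tgif2 lists. These lists were far longer, with 16833 Nanog, 16398 Hdac1 and 18976 Tgif2 peaks, and were not matched to the Smad3 list in strength. Among Nanog peaks of 94 to 1349 tags, Tgif1 overlapped 82.8% of the 653 with Smad3 and 62.3% of the 1030 without. The gap to the whole Nanog list therefore does not show that Smad3 peaks differ from strong Nanog peaks in Tgif1. In the lowest quintile of Smad3 tags Tgif1 overlapped 83 of 240 peaks, 34.6% (28.9 to 40.8). The share was 62.1% in the second quintile, 76.2% in the third, 81.7% in the fourth and 88.7% (84.1 to 92.1) in the highest. The intervals of the lowest 3 quintiles did not overlap each other, whereas neighbours among the upper 3 did.

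Ranking by peak width gave nearly the same course. Tgif1 overlapped 38.3% of the narrowest quintile of Smad3 peaks and 91.6% of the widest. Ranking by fold enrichment, the peak caller's ratio of a peak to its background, did not. By fold the share was 74.2% in the lowest quintile, 60% (144 of 240) in the second, 57.1% in the third, 72.5% in the fourth and 79.5% in the highest. Peaks with low fold were not peaks with few tags. The lowest quintile by fold had a median of 31 tags and 734.5 bp, against 20 tags and 609 bp in the second quintile by fold.

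**Figure D1:**
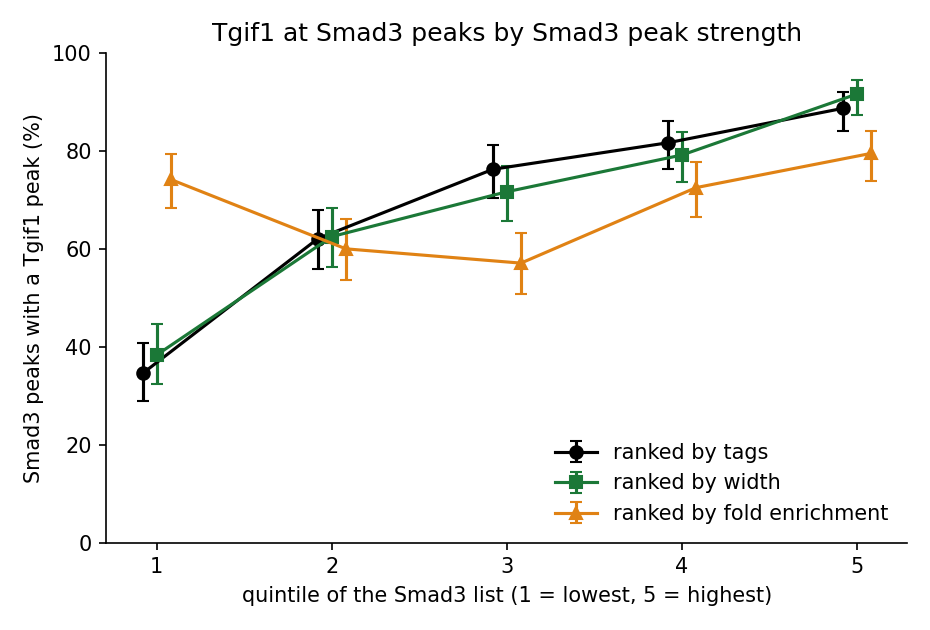
Share of Smad3 peaks with a Tgif1 peak (vertical axis, %) in each quintile of the Smad3 list (horizontal axis), ranked by tags (circles), width (squares) or fold enrichment (triangles), with bars for 95% Wilson intervals. By tags the share went from 34.6% to 88.7%, while by fold it was lowest in the third quintile, at 57.1%.

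The split was similar along the genome. By chromosome the share of Smad3 peaks with Tgif1 ran from 59.3% of 54 peaks on chromosome 9 to 82.0% of 50 peaks on chromosome 12. The interval of the share held the value of all 19 chromosomes on 18 of them, the exception being chromosome 12 with 69.2 to 90.2%. The median number of Smad3 tags was higher with Tgif1 than without on 19 of 19 chromosomes.

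Smad3 peaks with Tgif1 were stronger and wider than those without. The median peak with Tgif1 held 31 tags, with quartiles of 22 and 45 and a range from 11 to 1141. The median peak without Tgif1 held 19 tags, with quartiles of 15 and 27 and a range from 11 to 309. Both sides started at the same lowest value and overlapped over most of their range, so tags alone do not separate them. The median width was 740 bp with Tgif1 (quartiles 629 and 884) and 587 bp without (quartiles 494.75 and 704.25). Tags per kb of peak width had medians of 41.4 and 33.0. Fold enrichment differed little, with medians of 9.81 and 9.15.

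These differences depended on how the Tgif1 peaks were chosen. When the other lists were limited to peaks at or above their median fold, 44.2% of Smad3 peaks had a Tgif1 peak. The medians of the 2 sides then differed by 3 tags in place of 12, and by 36 bp in place of 153. The interval of the difference in tags, -0.61 to 4.41, included 0, so a difference in tags was not resolved with the stricter lists, while that in width, 5.59 to 65.8 bp, lay above 0.

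**Figure D2:**
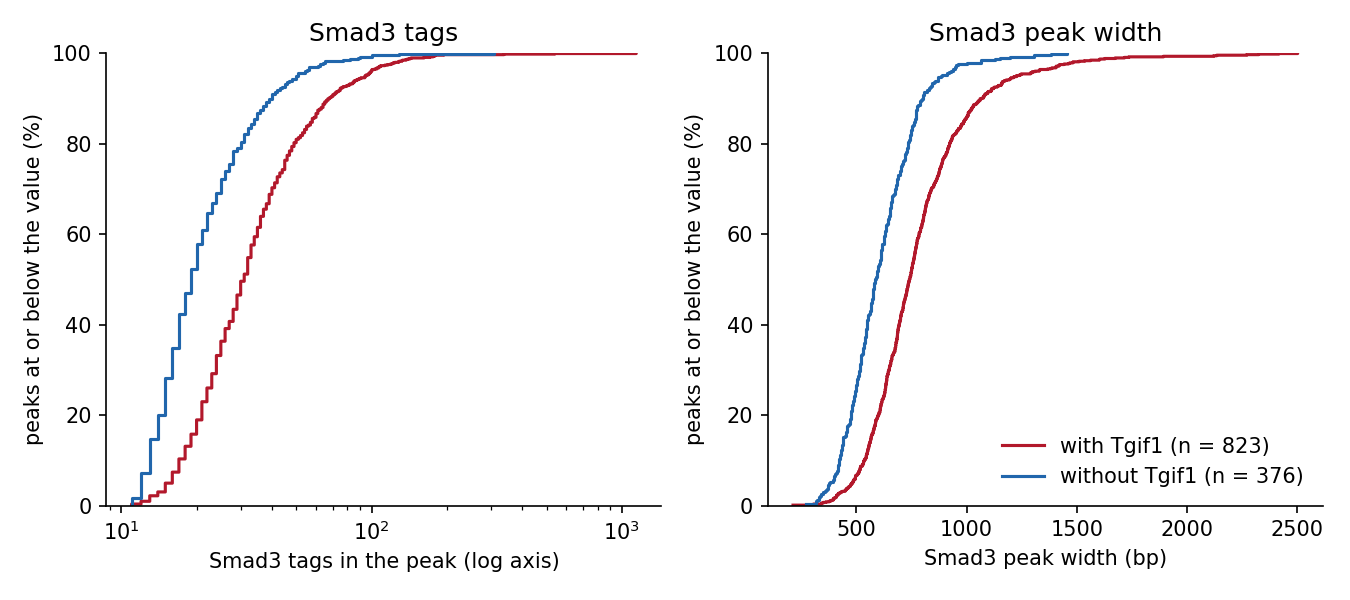
Cumulative share of Smad3 peaks (vertical axes, %) by Smad3 tags (left, log axis) and by Smad3 peak width in bp (right), for 823 peaks with Tgif1 and 376 without. The curve with Tgif1 lies to the right in both panels, with medians of 31 against 19 tags and 740 against 587 bp.

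By tags, the strongest Smad3 peaks with Tgif1 were strong Tgif1 peaks as well. The peak with the most tags, at chr15:74915638-74917773, held 1141 Smad3 tags and overlapped a Tgif1 peak of 2391 tags. This Smad3 peak had 534 tags per kb and a fold of 5.08, against medians of 41.4 and 9.81 on this side. It overlapped Tgif2 but neither Nanog nor Hdac1. The next, chr18:40467434-40468348, held 539 Smad3 and 1365 Tgif1 tags, with 590 Smad3 tags per kb. The third, chr3:8244565-8246836, held 338 Smad3 and 324 Tgif1 tags. These last 2 also carried Nanog, Hdac1 and Tgif2. The other pair were chr13:66811075-66812517 with 194 Smad3 tags, which lacked Hdac1, and chr9:110849399-110851115 with 180, which carried all factors. Each of the 5 Tgif1 peaks stood above the 99.7th percentile of the Tgif1 list by tags. By fold the 5 regions were mixed. In the order named, Smad3 fold was 5.08, 13.51, 5.64, 9.09 and 15.48. Tgif1 fold was 21.14, 14.87, 13.66, 17.43 and 21.78, against a median of 16.16 for Tgif1 peaks with Smad3.

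The strongest Smad3 peaks without Tgif1 were of mixed kinds. The leading one, chr8:66164700-66164970, held 309 tags in only 270 bp, which is 1144 tags per kb against a median of 33.0 on this side. It overlapped no other factor, and the next Tgif1 summit was 1007 kb away. The peak that followed, chr6:39395521-39396826, held 129 tags and carried Nanog, Hdac1 and Tgif2, with a Tgif1 summit 25.2 kb away. At chr1:103652920-103654375 a peak of 100 tags carried Nanog alone, 1526 kb from the next Tgif1 summit. At chr13:105275310-105275936 a peak of 90 tags had the highest fold of the Smad3 list, 37.45, and no other factor. The last of the 5, chr2:20590752-20591672, held 88 tags, carried Hdac1 alone and lay 3.86 kb from a Tgif1 summit.

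Nanog was found at nearly all Smad3 peaks with Tgif1 and at fewer of those without. Over all Smad3 peaks Nanog overlapped 90.4%. With Tgif1 it overlapped 801 of 823, 97.3% (96.0 to 98.2), and without Tgif1 283 of 376, 75.3% (70.7 to 79.4). Read the other way, Nanog was lacking at 22 Smad3 peaks with Tgif1 and at 93 without, although the latter side was the smaller.

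The gap in Nanog was seen in each quintile of Smad3 tags. In the lowest quintile Nanog overlapped 94.0% of peaks with Tgif1 (86.7 to 97.4) and 66.2% of those without (58.5 to 73.2). In the second quintile the shares were 96.0% and 83.5%, in the third 98.9% and 82.5%, and in the fourth 98.5% and 86.4%. In the highest quintile they were 97.2% of 212 peaks and 66.7% of 27 peaks (47.8 to 81.4). Averaged over the quintiles, the share was higher by 19.9 percentage points with Tgif1 (15.3 to 25.6), against 22.1 points without regard to tags. The interval of the difference lay above 0 in each of the 5 quintiles. With the other lists limited to peaks at or above their median fold the mean difference was 11.9 points.

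Hdac1, the deacetylase that corepressors such as Tgif1 recruit, separated the sides more than Nanog did in points. Over all Smad3 peaks Hdac1 overlapped 82.2%. It overlapped 780 peaks with Tgif1, 94.8% (93.0 to 96.1), and 205 without, 54.5% (49.5 to 59.5). In the lowest quintile the shares were 94.0% and 43.9%, in the second 92.6% and 60.4%, and in the third 96.2% and 63.2%. In the fourth they were 98.0% and 70.5%, and in the highest 92.5% and 51.9%. With Tgif1, Hdac1 was thus nearly as frequent at weak as at strong Smad3 peaks. The mean difference over quintiles was 36.7 points (30.9 to 42.7).

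Tgif2, the paralog, showed the widest gap of the 3 factors in points. Over all Smad3 peaks it overlapped 64.6%. It overlapped 699 peaks with Tgif1, 84.9% (82.3 to 87.2), and 76 without, 20.2% (16.5 to 24.6). Its share was higher at higher Smad3 tags on both sides, going from 73.5% to 92.9% with Tgif1 and from 12.7% to 33.3% without. The mean difference over quintiles was 58.8 points (52.1 to 63.9). Cross-reaction of the Tgif1 antibody with Tgif2 was not tested.

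**Figure D3:**
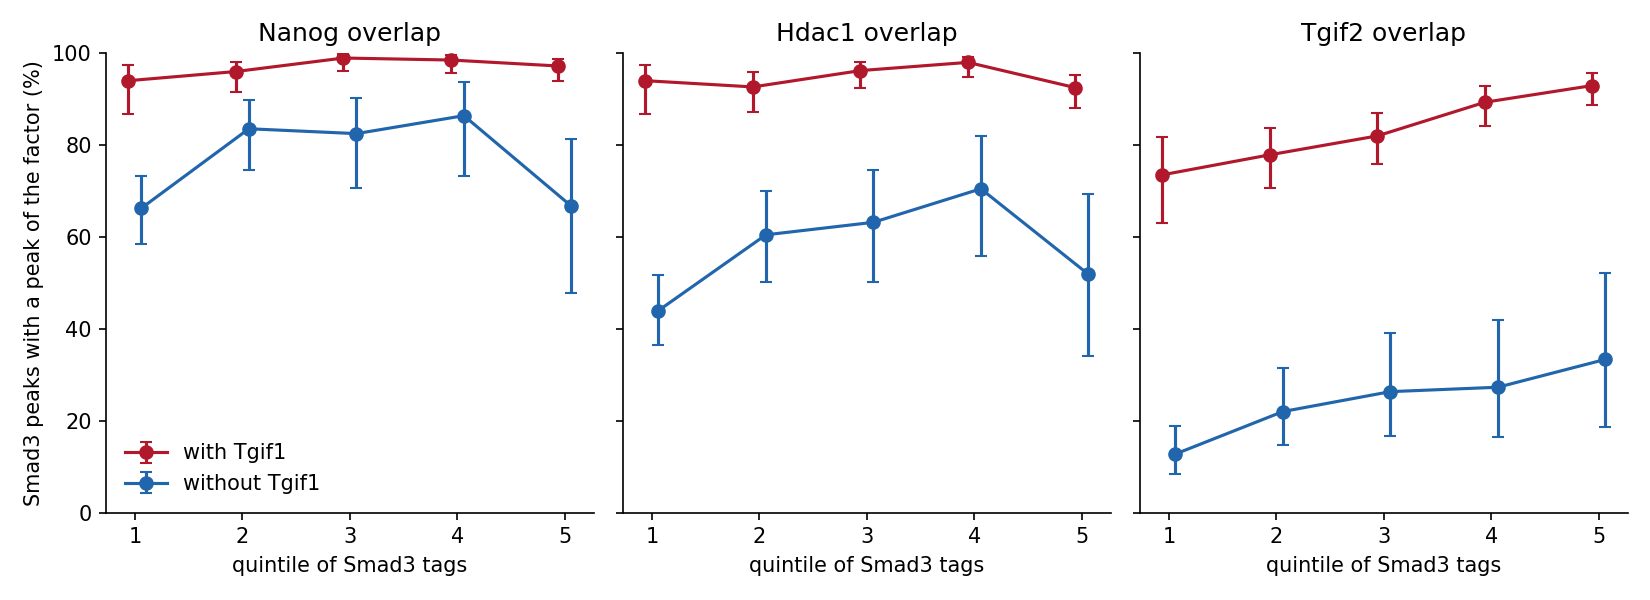
Share of Smad3 peaks that overlap Nanog, Hdac1 or Tgif2 (vertical axis, %) in each quintile of Smad3 tags (horizontal axes), with Tgif1 (red) and without (blue), and bars for 95% Wilson intervals. The red points lie above the blue ones in every quintile, and without Tgif1 the Nanog and Hdac1 shares are lower in the highest quintile than in the fourth, at 66.7% and 51.9% of 27 peaks.

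Within a quintile the sides were close in tags. The medians with and without Tgif1 were 16 and 15 tags in the lowest quintile, 21 and 20 in the second, 27 and 26 in the third, 36 and 36 in the fourth and 61 and 56 in the highest. The shares of Nanog, Hdac1 and Tgif2 were each higher with Tgif1 on 19 of 19 chromosomes. Quintiles of width in place of tags gave mean differences of 17.9 points for Nanog, 35.7 for Hdac1 and 59.7 for Tgif2.

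The lower shares of Nanog and Hdac1 in the highest quintile without Tgif1 rested on few peaks. Of these 27 peaks, 7 overlapped none of the other factors. They had a median width of 499 bp and a median of 112 tags per kb, compared with 924 bp and 65.0 tags per kb for the other 20. Among all Smad3 peaks without Tgif1, 7 exceeded 100 tags per kb, a limit set after the data were seen, and 6 of the 7 overlapped no other factor. With Tgif1, 26 peaks exceeded it and 2 of these overlapped no other factor. Without all peaks above that limit the mean difference over quintiles was 16.8 points for Nanog and 35.0 for Hdac1. Whether such dense narrow peaks are also present in the mock library was not tested.

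Over all quintiles together, combinations of factors were far more uniform with Tgif1 than without. With Tgif1, 663 of 823 Smad3 peaks, 80.6% (77.7 to 83.1), carried Nanog, Hdac1 and Tgif2 together, 103 carried Nanog and Hdac1 only, and 4 carried none of the 3. Without Tgif1, 55 of 376, 14.6% (11.4 to 18.6), carried the 3 together. On that side 135 carried Nanog and Hdac1 only, 83 carried Nanog alone and 74, or 19.7%, carried none. Hdac1 without Nanog was rare on both sides, at 14 and 15 peaks. These counts were not matched in Smad3 tags. The lowest quintile held 157 of the 376 peaks without Tgif1 and 83 of the 823 with it.

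The course of Tgif1 with Smad3 tags was also seen within the 2 largest classes of peaks by Nanog and Hdac1. Among the 956 Smad3 peaks with both Nanog and Hdac1, Tgif1 overlapped 80.1% (77.5 to 82.5). Within this class the share went from 54.8% of 135 peaks in the lowest quintile to 71.7%, 83.7%, 86.3% and 94.2% of 206 peaks in the highest. Among 128 peaks with Nanog but no Hdac1 Tgif1 overlapped 27.3% (20.4 to 35.6), going from 4 of 47 in the lowest quintile to 12 of 18 in the highest. The other classes were small and showed no steady course. Among 86 peaks with neither, Tgif1 overlapped 9.30% (4.79 to 17.3), with 1 of 46 in the lowest quintile, 0 of 5 in the fourth and 4 of 11 in the highest. Among 29 with Hdac1 but no Nanog it overlapped 48.3%, with 4 of 12 in the lowest and 2 of 4 in the highest.

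Tgif2 varied within the class with Nanog and Hdac1, which was therefore split by Tgif2 after the data were seen. Tgif1 overlapped 92.3% of the 718 peaks with Tgif2 and 43.3% of the 238 without. With Tgif2 the share went from 83.1% of 65 peaks (72.2 to 90.3) in the lowest quintile of Smad3 tags to 96.4% of 192 (92.7 to 98.2) in the highest. Without Tgif2 it was 28.6% of 70 (19.3 to 40.1) in the lowest, 54.9% of 51 in the third, 48.7% of 39 in the fourth and 64.3% of 14 (38.8 to 83.7) in the highest. The intervals of the lowest and the highest quintile were apart with Tgif2 and overlapped without it, where the highest held 14 peaks. Without Tgif2 the interval of the third quintile, 41.4 to 67.7, was apart from that of the lowest. Overlap of separate intervals does not mean that the shares were alike, and no interval of the difference was computed here.

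In the upper 3 quintiles of Nanog tags, before Hdac1 was taken into account, Nanog peaks with Smad3 carried Tgif1 more often than other Nanog peaks, in a comparison added after the data were seen. On chromosomes 1 to 19, 6.46% of Nanog peaks overlapped Smad3. Tgif1 was at 74.3% (71.6 to 76.8) of the 1088 Nanog peaks with Smad3 and at 33.8% (33.1 to 34.6) of the 15745 without. In the highest quintile of Nanog tags, from 59 tags up, the shares were 80.1% of 855 and 54.6% of 2511, and in the fourth quintile 60.1% of 148 and 38.9% of 3219. In the third they were 50.0% of 38 (34.8 to 65.2) and 31.8% of 3328 (30.2 to 33.4), and in the second 36.4% of 33 and 27.3% of 3334, with overlapping intervals. In the lowest quintile they were 21.4% of 14 and 22.1% of 3353, and no difference was detectable with so few peaks. Strength was not fully matched, since in the highest quintile the median Nanog peak held 139 tags with Smad3 and 86 without. In the tenth of Nanog peaks from 59 to 94 tags the medians were closer, at 74 and 72 tags. There Tgif1 was at 71.3% of 202 with Smad3 and 49.2% of 1481 without. Limited to Nanog peaks with Hdac1, the shares with and without Smad3 were 83.9% and 68.2% in the highest quintile and 73.2% and 60.5% in the fourth. In the third they were 58.1% of 31 and 57.6%, in the second 39.1% of 23 and 59.0%, and in the lowest 37.5% of 8 and 58.5%. With Hdac1 present the difference was thus seen in the upper 2 quintiles only, and the intervals of the lower 3 overlapped.

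By tags, and over all quintiles together, the other factors' own peaks at Smad3 sites were stronger with Tgif1 than without. Strength is given here as the percentile of a peak's tags within its own list, since tags of different libraries share no scale. Nanog peaks at Smad3 peaks had a median percentile of 94.3 with Tgif1 and 85.8 without. Hdac1 peaks had medians of 86.7 and 58.2, and Tgif2 peaks 74.2 and 29.5. These medians join sides that differ in Smad3 tags, and the gaps were small or absent at the highest tags. Nanog stood at 84.3 and 77.8 in the lowest quintile, 89.1 and 82.1 in the second, 92.8 and 90.8 in the third, and 98.3 with Tgif1 and 99.2 without in the highest. Hdac1 stood at 58.2 and 43.5 in the lowest quintile, 74.4 and 41.4 in the second, and 95.7 and 93.7 in the highest. Tgif2 stood at 46.6 and 25.5 in the lowest, 77.5 and 34.2 in the fourth, and 84.6 and 80.9 in the highest, the last from 9 peaks. By fold in place of tags the difference for Hdac1, with Tgif1 minus without, was -5.98 percentile points against 28.5 by tags, so the direction for Hdac1 holds for tags only. For Nanog and Tgif2 the differences by fold were 2.85 and 4.17 points, with intervals that included 0.

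Where Tgif1 was not shared, the next Tgif1 summit was usually far away. From the 376 Smad3 summits without Tgif1 the median distance was 25.7 kb (95% interval from order statistics 18.1 to 34.4), with quartiles of 6.12 and 97.0 kb. A Tgif1 summit lay within 1 kb of 14 of them, 3.72% (2.23 to 6.15), within 10 kb of 127, 33.8%, and within 100 kb of 283, 75.3%. The edge of the next Tgif1 peak lay within 250 bp in 15 cases and within 1000 bp in 43. Few of these peaks were therefore near misses of the overlap rule. Against Tgif1 peaks at or above their median fold alone, the median distance was 39166 bp.

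Smad3 peaks with Tgif1 lay in places richer in further Tgif1 peaks. Setting aside the overlapping Tgif1 peak, the next summit beyond it was a median of 8.27 kb away (6.76 to 9.67), and lay within 10 kb for 447 of 823, 54.3% (50.9 to 57.7). The median distance between a Tgif1 summit and the next in the whole Tgif1 list was 13.9 kb. Nanog peaks with neither Smad3 nor Tgif1 lay a median of 27.2 kb (25.9 to 28.7) from the next Tgif1 summit, an interval that falls inside that of the Smad3 peaks without Tgif1. In each quintile of Smad3 tags the median was longer without Tgif1, but the intervals were apart in the lowest quintile only, at 34.8 kb (24.5 to 60.6) without and 13.9 kb (7.26 to 16.4) with Tgif1. In the other 4 they overlapped, which does not show that the sides were alike there. In the fourth quintile the medians were 20.7 kb (8.95 to 85.45) without and 6.47 kb (5.26 to 9.89) with Tgif1. In the highest quintile they were 9.29 kb (4.21 to 42.0) and 5.76 kb (4.41 to 7.41).

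**Figure D4:**
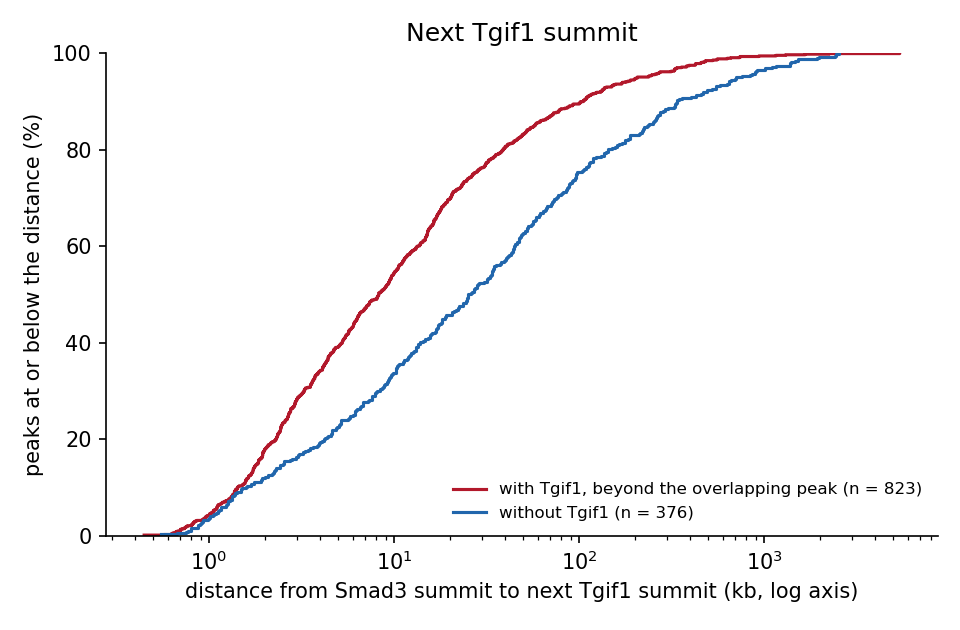
Cumulative share of Smad3 peaks (vertical axis, %) by the distance from their summit to the next Tgif1 summit (horizontal axis, kb, log scale), for 376 peaks without Tgif1 and for 823 with Tgif1 after setting aside the overlapping peak. The curves start together near 1 kb and part beyond it, with 33.8% and 54.3% of peaks at or below 10 kb.

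The nearest and the farthest cases show the span. The closest unshared pair was at chr4:45422171-45422705, with 14 Smad3 tags, 549 bp from the summit of a Tgif1 peak of 84 tags at chr4:45420488-45422141. The next were chr2:149808021-149808539 at 673 bp and chr19:44354290-44355030 at 754 bp. Each of these 3 carried Hdac1, as did 54.5% of all Smad3 peaks without Tgif1. The farthest were chr3:44102124-44102583 at 2556 kb, which carried Nanog alone, and 2 neighbouring peaks at chr2:87355645-87356277 and chr2:87321113-87321941. Both of these carried Nanog and Hdac1 and had the same next Tgif1 peak, 2455 and 2420 kb away.

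Unshared Smad3 peaks were also divided by the Nanog and Hdac1 peaks at them. The median was 33.4 kb (22.2 to 44.0) for the 190 peaks with Nanog and Hdac1, 16.9 kb (9.74 to 33.3) for the 93 with Nanog only of that pair, and 28.7 kb (18.1 to 58.0) for the 78 with neither. The 15 peaks with Hdac1 and no Nanog had the shortest median, 3.51 kb (1.06 to 47.2), and 6 of these 15 lay within 2 kb of a Tgif1 summit. The intervals overlapped throughout, so no order among the 4 classes was resolved.

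Smad3 summits lay close to those of the other factors on both sides, and the gap between the sides was largest for Tgif2. To an overlapping Nanog summit the median was 34 bp with Tgif1 (31 to 37) and 41 bp without (32 to 46). To an overlapping Hdac1 summit it was 47 bp (44 to 51) and 44 bp (35 to 53). To Tgif2 it was 66 bp (58 to 72) and 46.5 bp (36 to 63). The separate intervals overlapped for each factor. Intervals of these differences were not computed, so the overlap does not show that the sides were alike. The summit of the overlapping Tgif1 peak lay within 25 bp in 29.9% of shared peaks, within 100 bp in 71.0% and within 200 bp in 86.9%.

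Where Smad3 and Tgif1 were shared, their tag numbers went together in part. Of the 823 Smad3 peaks, 9 overlapped 2 Tgif1 peaks and the one with the nearest summit was used, and 11 Tgif1 peaks overlapped 2 Smad3 peaks. The rank correlation of Smad3 and Tgif1 tags across the 823 peaks was 0.50 (Spearman). It is a description across peaks of 2 libraries. Width correlated with tags at 0.81 in the Smad3 and 0.79 in the Tgif1 peaks, and Smad3 width with Tgif1 width at 0.42. Given both widths, the partial rank correlation was 0.36. Per kb of peak width it was 0.41, and by fold enrichment 0.18. For comparison, across Smad3 peaks with Tgif1, Smad3 tags correlated with those of Nanog at 0.58 (801 peaks), of Hdac1 at 0.52 (780) and of Tgif2 at 0.40 (699).

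Tgif1 tags were higher in each higher quintile of Smad3 tags. The median shared Tgif1 peak held 46 tags in the lowest quintile of Smad3 tags (quartiles 38 and 63.5), 53 in the second, 62 in the third, 79 in the fourth and 104 in the highest (quartiles 73.75 and 150.5). The median width of these Tgif1 peaks went from 729 to 1178 bp and their median tags per kb from 64.3 to 86.9. In the lowest quintile 8.43% of the Tgif1 peaks belonged to the 20% of the Tgif1 list with the most tags, and in the highest 63.7%. The quartile ranges of neighbouring quintiles overlapped.

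In counts, pairs of a strong Tgif1 with a weak Smad3 peak outnumbered pairs of a strong Smad3 with a weak Tgif1 peak. By percentile within each list, 452 of the 823 pairs, 54.9%, lay within 20 points of each other. A Smad3 peak in the top 20% of its list met a Tgif1 peak in the bottom 20% in 1 of 212 cases, and a Tgif1 peak in the lower 50% in 17. Of the 309 pairs with Tgif1 in its top 20%, the Smad3 peak was in the bottom 20% of its list in 7 and in the lower 50% in 60. The totals over all 823 pairs were unequal as well. Smad3 was in its lower 50% in 322 pairs and Tgif1 in its lower 50% in 258. The counts alone therefore do not show an asymmetry beyond these totals. The Smad3 list holds far fewer peaks than the Tgif1 list, so equal percentiles do not stand for equal occupancy.

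**Figure D5:**
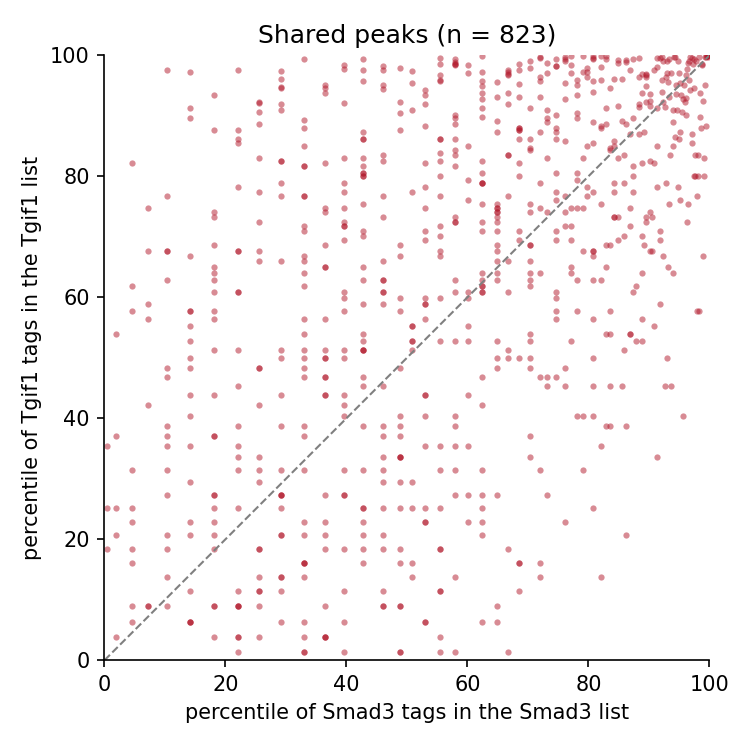
Percentile of Tgif1 tags within the Tgif1 list (vertical axis) against percentile of Smad3 tags within the Smad3 list (horizontal axis) for the 823 shared peaks, 1 point each, with a dashed line where the percentiles are equal. The lower right corner is nearly empty, and 60 points combine the lower 50% of Smad3 with the top 20% of Tgif1.

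The pairs that differed most in percentile were examined in each direction. At chr6:135014537-135015165 a Smad3 peak of 15 tags, at the 10.3rd percentile, overlapped a Tgif1 peak of 172 tags at the 97.6th. At chr12:78065999-78066491 the values were 16 Smad3 and 165 Tgif1 tags, and at chr16:29657675-29658140 they were 13 and 91. In the other direction, chr13:98357764-98358644 held 46 Smad3 tags, at the 82.0th percentile, over a Tgif1 peak of 35 tags at the 13.8th. At chr1:77450043-77450916 the values were 53 and 38 tags, with both summits at the same base, and at chr2:115885247-115886279 they were 34 and 30. All 6 regions overlapped Nanog, Hdac1 and Tgif2, as did 80.6% of all shared peaks.

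Seen from the Tgif1 list, Smad3 marked a small and stronger part. Smad3 overlapped 821 of 16273 Tgif1 peaks, 5.05%. Tgif1 peaks with Smad3 held a median of 71 tags (quartiles 48 and 107) and those without 53 (quartiles 40 and 78), and the quartile ranges overlapped. Their widths were alike, with medians of 930 and 935 bp, and per kb of width the medians were 74.0 and 57.3 tags. Of the Tgif1 peaks with Smad3, 36.5% belonged to the 20% with the most tags and 48.0% to the 20% with the most tags per kb. By fold 28.5% did, against 19.5% of the Tgif1 peaks without Smad3.

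Within the Tgif1 list, overlap with Smad3 was largely found where Nanog was present. Among Tgif1 peaks with Nanog, Smad3 overlapped 8.13% in the lowest quintile of Tgif1 tags and 20.8% in the highest. Among Tgif1 peaks without Nanog it overlapped 0.228% (5 of 2197) in the lowest quintile and 0.216% (4 of 1848) in the highest.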

How the data were processed

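ChIP-seq peak lists of Smad3, Tgif1, Nanog, Hdac1 and Tgif2 were used, 1 library per factor. The submitters' processing notes name MACS, the build mm9 and the aligner BWA 0.5.9-r16. Settings, thresholds, control libraries and library depth are not given in the sources used here. Precision therefore rests on the number of peaks and tags. The deposited lists have no header. Column meanings were read from the values: a count of tags per peak, a fold enrichment (a ratio to background) and a summit, all as the authors deposited them and not rescaled.

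Peaks on chromosomes 1 to 19 were kept, which left out 27 Smad3 peaks. The members and lists were chosen with earlier results of these data known. With 1 library per factor no test was run. Named regions followed a rule: the 5 Smad3 peaks with most tags on each side, the 3 nearest and 3 farthest unshared ones, and the 3 shared pairs with the largest percentile difference in each direction. Overlap and distance code was tested on simulated data, and 0 of 20 overlap counts differed from bedtools 2.31.1. Alternatives were other overlap rules, stricter lists, other rankings, the X chromosome and leaving out extreme peaks. Sequences and gene names were not used here, because the reference tables are of another build. Intervals came from statsmodels 0.14.6 and SciPy 1.17.1 and figures from matplotlib 3.10.9, under Python 3.11.15 with pandas 2.3.3 and NumPy 2.4.6.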

Additional observations from a re-analysis of the deposited data

How the results depend on the processing

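Of 72 alternative values, 53 stayed inside the 95% interval of the main value, 18 moved outside it and 1 changed direction. The share of Smad3 peaks with Tgif1 was 59.6% by summits within 200 bp, 64.9% with windows of 250 bp, 44.2% with the other lists at or above their median fold and 71.6% with the Smad3 list so limited. The difference of median tags was 9 by summits, 3 with the stricter other lists and 15 with the stricter Smad3 list, and that of median width 103 bp by summits and 36 bp with the stricter other lists. With the stricter other lists the Nanog difference over quintiles was 11.9 points, and with the stricter Tgif1 list the median distance was 39166 bp. The tag correlation was 0.41 per kb, 0.18 by fold and 0.36 given both widths. The excess of Tgif1 peaks with Smad3 in the top 20% of the Tgif1 list was 17.1 points by tags, 8.96 by fold and 29.5 per kb. Ranked by fold, the difference of median percentiles was 2.85 for Nanog, 4.17 for Tgif2 and -5.98 for Hdac1, against 8.42, 44.6 and 28.5 by tags. The cause of these moves was not tested. The stricter lists hold fewer peaks by construction. The ranking by fold of the other factors and the removal of peaks above 100 tags per kb were chosen after the data were seen. No paired analysis was possible because each factor had 1 library. Depth of the libraries is unknown, so absence of a Tgif1 peak means only that none was called.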
